A study of Mus musculus with 74 samples.

Results

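Gm14412 is a KRAB zinc finger protein (KRAB-ZFP) whose binding was mapped by ChIP-seq in F9 EC cells, a mouse embryonal carcinoma line. Its sites are the 2787 peaks of the deposited table that carry its name, out of 53255 peaks in all and 53011 with a labelled sample. This placed it at rank 6 of 67 KRAB-ZFPs by peak number, with lists called at unlike thresholds and against different controls. The protein carried the tag labelled C-3XHA and was expressed from a stably integrated vector in pooled drug-resistant cells, so the sites are those of an introduced, tagged protein. Chromatin was precipitated with an antibody to HA, reads were aligned with Bowtie2, and peaks were called at p under 1e-10 and enrichment over 20 against Gm14296_control, an HA ChIP. This control, the cell line, the tag and the antibody were shared by 9 other ChIPs, used here for comparison. EtOHi1, Gm14410 and Gm14436 were called at 1e-10 and an enrichment over 10. Gm14406 and Gm6710 were called at 1e-10 and 20, while Gm14326, Gm14391, Gm14393 and Gm14418 were called at 1e-05 and 10. Each protein was assayed in 1 sample, so no value has a replicate error, and the peaks of a sample are not replicates of each other. No expression values were used here, so the F9 label could not be checked against marker genes.

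Proteins of this family read DNA with a row of zinc fingers and typically act as repressors, since the KRAB domain brings in KAP1 (gene Trim28), a scaffold for enzymes that build heterochromatin. Many of them bind retrotransposons, and clusters of young KRAB-ZFP genes in the mouse are thought to keep mobile elements silent in early embryonic cells. Mouse L1 elements, one of several kinds of retrotransposon that can still move in this species, carry a promoter of tandemly repeated units called monomers, followed by a pair of open reading frames. The gene Gm14412 lies at chr2:177099225-177109012 (mm9, minus strand), and its annotated coding sequence of 526 codons held 15 C2H2 fingers by a pattern search.

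The peaks of Gm14412 fell mainly into 3 kinds of DNA. A first kind of 1047 peaks (37.6%) lay in copies of a repeat with units of 214 bp. A second kind of 710 peaks (25.5%) lay in a group of similar windows, set beside arrays of a 6-base unit below. Outside both, 936 peaks (33.6%) lay in sequence with fewer than 10 genome copies. The remaining 94 peaks (3.37%) were other multi-copy sequence. Copies here are the median number of exact occurrences, in mm9 and on both strands, of the 24-base words of a 200 bp peak window. The 2 repeat kinds are the largest groups found when all Gm14412 windows were aligned with each other and joined at 80% identity over 80% of the window. The next largest group had 5 windows. They are called family 1 and family 2 below, and no repeat annotation was used to name them.

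The sequences that carry these results are shown in mm9, 5′ to 3′ on the strand given. The capitals in the first set mark exact matches to a 13-base core, GAGNGGNNGCNNC, at peaks with fewer than 10 copies. They comprise 6 with the highest fold enrichment among those holding the core outside UTRs, named after the gene they lie in or the gene with the nearest transcript start, and the peak beside Trim28.
Rims4, chr2:163744203-163744262, minus strand: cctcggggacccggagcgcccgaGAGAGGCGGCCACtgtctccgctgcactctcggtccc
Mtmr3, chr11:4425032-4425091, minus strand: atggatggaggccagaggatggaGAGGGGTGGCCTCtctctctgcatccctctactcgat
Cep57, chr9:13630930-13630989, minus strand: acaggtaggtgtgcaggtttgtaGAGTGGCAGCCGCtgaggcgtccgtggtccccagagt
Cybrd1, chr2:70993763-70993822, minus strand: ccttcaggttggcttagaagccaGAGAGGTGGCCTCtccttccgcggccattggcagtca
Mmrn2, chr14:35213327-35213386, plus strand: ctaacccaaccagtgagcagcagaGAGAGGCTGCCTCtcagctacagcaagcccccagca
4930428N03Rik, chr14:25468443-25468502, minus strand: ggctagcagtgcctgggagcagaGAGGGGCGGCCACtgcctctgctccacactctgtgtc
Trim28, chr7:13608845-13608904, minus strand: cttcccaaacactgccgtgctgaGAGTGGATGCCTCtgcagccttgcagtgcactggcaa

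The second set shows the repeats. In the Det1 array the capitals mark 3 exact cores in 120 bases. In family 1 they mark the bases aligned with the core, which differ from it at 1 position, beside the 24-base word shared by most windows, which is the first 24 bases of the line. In family 2 they mark the word GAGGC.
Det1 array, chr7:85976433-85976552, plus strand: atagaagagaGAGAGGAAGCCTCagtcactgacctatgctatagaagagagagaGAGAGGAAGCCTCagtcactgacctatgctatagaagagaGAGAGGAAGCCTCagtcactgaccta
Family 1, chr3:66439266-66439324, minus strand: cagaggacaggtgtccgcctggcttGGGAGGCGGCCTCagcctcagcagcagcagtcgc
Family 2, chrX:34670549-34670608, minus strand: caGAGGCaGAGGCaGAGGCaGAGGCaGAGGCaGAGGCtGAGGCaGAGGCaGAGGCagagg

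The first question was how the Gm14412 ChIP stood among the ChIPs of its control. At equal thresholds, a score over 100 (10 times the negative log10 of the MACS p) and a fold enrichment over 20, Gm14412 had 2786 peaks, Gm14406 had 5684 and Gm6710 had 431. Gm14410 then had 55 peaks, Gm14436 had 33, EtOHi1 had 28, Gm14391 had 11 and Gm14326 had 1. Gm14393 and Gm14418 had none. The log10 number of peaks was 3.44 for Gm14412 and averaged 1.73 over the 7 others with peaks, 6 of which lay below it, a difference of 1.71 (exact permutation test over samples, two-sided p = 0.50). Gm14393 and Gm14418, without peaks at these thresholds, have no log10 value and were left out, so this test was 1 against 7. With 1 sample against 9 the smallest two-sided p such a test can give is 0.200, and with fewer others it is larger. None of these comparisons could therefore pass 0.05.

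The fold enrichment, the authors' ratio of tags at the summit to the local background, ranged from 20.0 to 146 over the Gm14412 peaks with a median of 33.4. At equal thresholds the medians of the others ran from 21.4 to 34.6, and 6 of 7 lay below Gm14412; the difference from their mean was 7.01 (exact permutation test, two-sided p = 0.50). As deposited, all 9 others lay below it, with a difference of 16.8 (exact permutation test, two-sided p = 0.200). The Gm14412 peaks held 28 to 3736 tags with a median of 94.0 and 356948 tags in all, and their called width had a median of 770 bp. The tags are counts inside peaks and not the depth of the library, which is unknown here. Their highest deposited false discovery rate was 3.82%, while it had a median of 100% in Gm14326, Gm14391, Gm14393 and Gm14418. Fold values above 40 were reached by 984 Gm14412 peaks, and by 444 of the more numerous Gm14406 peaks.

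Multi-copy sequence, with at least 10 genome copies, made up 65.3% of the Gm14412 peaks (1821 of 2787; 95% Wilson interval 63.6 to 67.1%). Gm14406 with 91.6% and Gm14410 with 80.3% lay above it, and the other 7 lay between 2.99% and 11.5%. The difference from the mean of the 9 others was 40.2 percentage points (exact permutation test, two-sided p = 0.60). Families 1 and 2 were made from Gm14412 windows alone, and the windows of the other ChIPs were then aligned to them. Repeat groups of the other ChIPs were not made, so the counts that follow describe the families and are not a test. Of the 9 other ChIPs, family 1 held 1 peak of Gm14326, 1 of Gm14418 and 1 of Gm6710, and family 2 held 1 peak of Gm14326. All intervals given here cover counting error only, since peaks of 1 sample are not replicates and copies of a repeat are not separate sites. Reads from PCR without molecular identifiers are also not independent molecules.

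**Figure D1:**
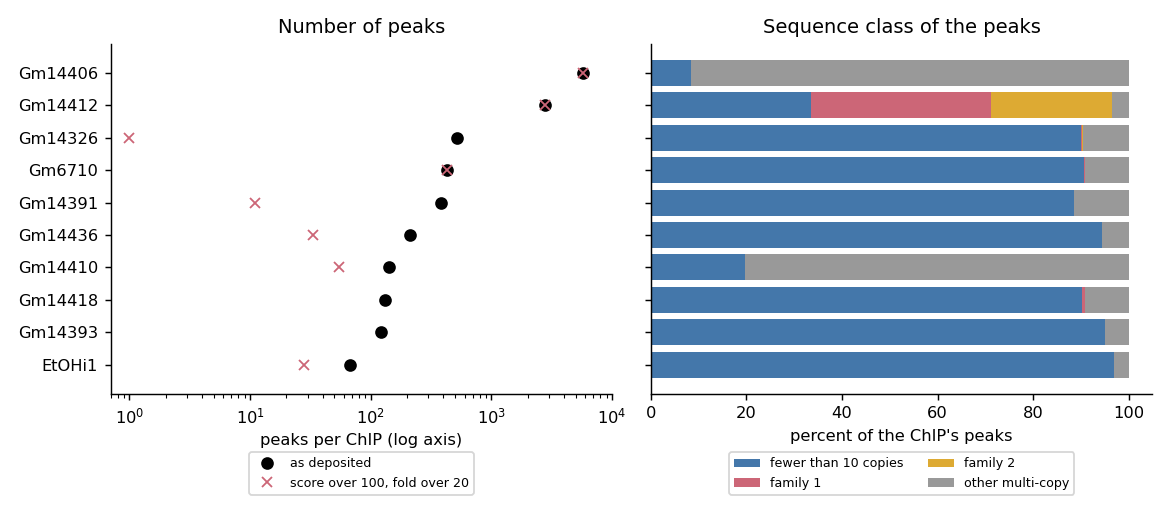
Left, number of peaks of each of the 10 ChIPs that share the control on a log axis, as deposited (points) and at a score over 100 and a fold over 20 (crosses; none for the 2 ChIPs without such peaks). Right, the share of each ChIP's peaks in percent by sequence class. Families 1 and 2, which were made from Gm14412 windows alone, fill 37.6% and 25.5% of the Gm14412 bar and are nearly absent from the other bars.

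Among sites with fewer than 10 genome copies, Gm14412 peaks shared a G-rich motif. A weight matrix of 24 columns was fitted to the 527 peaks with fewer than 10 copies on the odd-numbered chromosomes, and a second one to the 439 on the others. Both gave the same 8 most informative columns and letters, GAGNGGNNGCNNC, where N is any base. In the first fit, core position 6 was G in 97.4% of the weighted sites, position 3 was G in 96.1%, position 5 was G in 91.4% and position 9 was G in 86.3%. Position 2 was A in 77.8% and G in 20.3%. The least strict of the 8, position 10, was C in 65.9% and T in 22.5%.

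On the chromosomes that were not used to find it, the exact core stood in 28% of the Gm14412 windows with fewer than 10 copies (123 of 439; Wilson interval 24 to 32.4%). It was found in 1.37% of windows 1000 bp away from them on either side (12 of 878). Over all 200 bp windows of mm9 the share was 0.425%, and over peaks of the same kind in the 9 other ChIPs it was 0.302% (3 of 993). With 1 mismatch allowed at the 8 fixed letters, the shares were 76.8% of these Gm14412 windows, 13.1% of the windows 1000 bp away, 9.67% in the other ChIPs and 8.56% over the genome. Both strands were searched. The Gm14412 windows were also richer in G and C, with a median of 53.5% against 46.5% in the windows 1000 bp away; the part of base composition in the shares was not tested.

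The core lay under the summits. Of 136 peaks outside the families on these chromosomes with an exact core within 300 bp of the summit, 96 (70.6%) had it within 20 bp, and the median distance was 12.5 bp. It read on the plus strand in 75 of the 136. Over all chromosomes, 966 peaks had fewer than 10 copies, those in families included. The 294 of them with the exact core had a median fold of 34.4 and the 463 with 1 mismatch had 31.9, while the 209 with neither had 28.4. A fold above 40 was reached by 37.1% of the first, 34.1% of the second and 21.5% of the last.

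**Figure D2:**
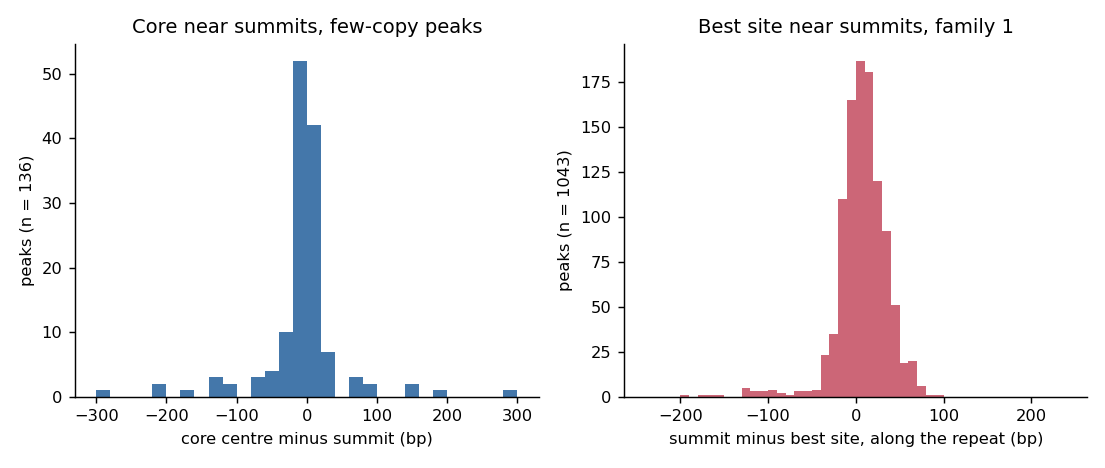
Left, distance in bp from the summit to the centre of the nearest exact core, for 136 few-copy peaks on chromosomes not used to find the motif. Right, distance in bp from the best-scoring site to the summit, along the strand of the repeat, for 1043 family 1 peaks; in both panels most peaks sit within 50 bp of 0.

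Family 1 peaks were the strongest of the large groups. Their median fold was 39.4 (quartiles 28.2 and 53.1) and their median number of tags was 111, against 31.7 and 90 for the few-copy peaks and 29.1 and 71.0 for family 2. A fold above 40 was found for 49.3% of the family 1 peaks, 32.3% of the few-copy peaks and 18.0% of the family 2 peaks. With 44.5% of the tags in peaks, family 1 held more than any other class. Reads that fit several copies equally well were placed at 1 of them at random, so the tags of a single copy are not its own; the part of this in the values was not tested.

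**Figure D3:**
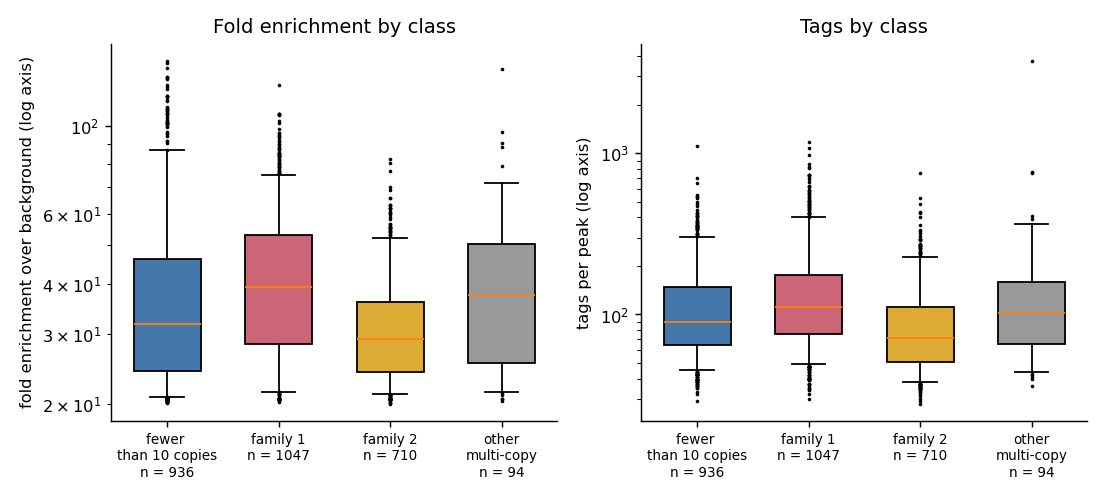
Fold enrichment over background (left) and tags per peak (right) of the Gm14412 peaks by sequence class, on log axes. Boxes span the quartiles with the median as a line, and whiskers span the 5th to 95th percentile; the family 1 medians of 39.4 and 111 tags are the highest of the 3 large classes, and the peak with 3736 tags stands apart.

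Family 1 was a tandem repeat that lay upstream of open reading frames. The 24-base word shown above stood in 730 of its windows (69.7%) and had 2517 exact copies in mm9. Of 933 neighbouring pairs of copies on a strand less than 1000 bp apart, 832 (89.2%) were 214 bp apart. Allowing up to 5 mismatches, the word was found near the summit of 1043 of the 1047 peaks. Downstream of it on the same strand, 1008 of them (96.6%) had an open reading frame of at least 300 codons within 8000 bp, and 294 (28.2%) had one of at least 1000 codons, beginning a median of 1753 bp away. Its commonest length was 1281 codons, in 197 of them. On the opposite strand in the other direction, 2 of the 1043 had a frame of at least 1000 codons. The 294 peaks with the long frame had a median fold of 46.2 (quartiles 31.7 and 59.2) and 146 tags, and the 749 without it had 37.7 (quartiles 28.2 and 49.6) and 105.

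The matrix from the few-copy peaks placed its best site at the same point of the repeat in nearly every family 1 peak. It lay 23 bp downstream of the centre of the 24-base word in 1039 of 1043 (99.6%), which are copies of a shared sequence and not separate sites. The summits lay a median of 30 bp downstream of that word, and 969 of them (92.9%) were within 50 bp of the site, with a median distance of 15 bp. The exact core stood in 12.1% of family 1 windows, and the core with 1 mismatch in 96.5%, against 0.143% and 3.58% of windows 1000 bp away. The exact cores near family 1 summits were mostly not this site: those within 300 bp of a summit lay at a median distance of 94.5 bp from it, and 17 (6.64%) within 20 bp.

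Arrays with several exact copies of the word carried a peak more often than copies that stood alone. A copy stood alone if no other exact copy lay within 1000 bp on its strand. Units with a changed base in the word were not counted, so such a copy can still have neighbouring units. The word was exact in 748 of the 1043 placed peaks. A peak window overlapped 252 of 992 copies that stood alone (25.4%, Wilson interval 22.8 to 28.2%), 331 of 408 pairs (81.1%, 77.0 to 84.6%) and 106 of 113 arrays of 3 (93.8%, 87.8 to 97%). Of arrays with 4 or 5 copies 47 of 49 had a peak, and of those with 6 or more 21 of 22. Counted per copy, the share in a peak window was 25.4% for single copies, 40.6% in pairs and 31.3% in arrays of 3. It was 21.8% with 4 or 5 and 13.6% with 6 or more, since each bound array had 1 copy in a peak window. A window of 200 bp around 1 summit is shorter than the 214 bp between units. The 1 copy per array is thus partly fixed by the windows, and a copy outside them is not shown to be unbound. The word was picked as the commonest in bound windows, so these shares describe it and are not a test. In pairs the peak window lay on the upstream copy in 297 cases and on the downstream copy, nearer the reading frame, in 34. The commonest form of the site stood in 52.2% of the upstream copies and 10.0% of the downstream ones.

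The exact copies of the word differed in the site beside them, and the share with a peak differed with the form of the site. Sites beside a changed word were not counted. The commonest form, with positions counted from 1 at its 5′ end and the capitals aligned with the core, is shown first, followed by each form that differs from it by a single base and has at least 15 copies.
Commonest form: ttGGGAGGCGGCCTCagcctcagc
T2C: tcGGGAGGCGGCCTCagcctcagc
C9T: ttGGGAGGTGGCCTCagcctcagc
G10A: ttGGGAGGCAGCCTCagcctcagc
G11A: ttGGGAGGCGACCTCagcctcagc
T14C: ttGGGAGGCGGCCCCagcctcagc
C24G: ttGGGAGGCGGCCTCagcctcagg

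The commonest form had a peak at 461 of 645 copies (71.5%, Wilson interval 67.9 to 74.8%), and at 163 of the 219 that stood alone (74.4%). Of the single changes, C9T, G10A and T14C fall on free positions (N) of the core, G11A on a fixed one, and T2C and C24G outside it. With C9T it was 17 of 25 copies (68%, 48.4 to 82.8%), an interval that includes the commonest form's share. With T2C it was 20 of 41 (48.8%, 34.3 to 63.5%) and with G10A 29 of 74 (39.2%, 28.9 to 50.6%). With C24G it was 11 of 120 (9.17%, 5.20 to 15.7%), and with T14C it was 0 of 19, which allows up to 16.8% by the Wilson interval. The G11A form had a peak at 112 of 353 copies (31.7%, 27.1 to 36.8%). Only 9 of its copies stood alone, and 7 of those had a peak (77.8%, 45.3 to 93.7%). The part of the tandem arrangement in these shares was not tested. A form with 3 differences from the commonest one, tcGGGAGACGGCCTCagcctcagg, had a peak at 1 of 138 copies (0.725%, 0.128 to 3.99%). Forms of the site also differ elsewhere in their repeats, and the part of those differences was not tested.

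**Figure D4:**
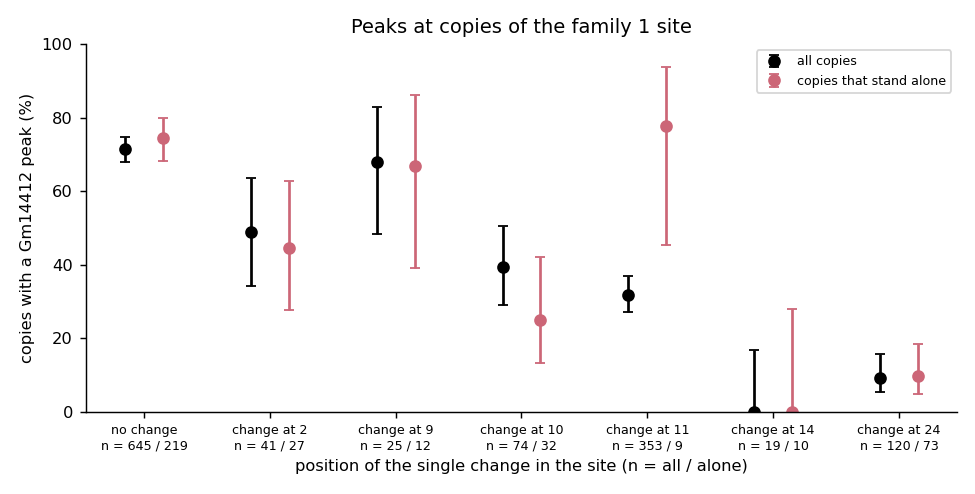
Share in percent of mm9 copies of the family 1 site beside an exact 24-base word that carry a Gm14412 peak. Shown are the commonest form and forms with a single change at the position given on the horizontal axis. Copies stand alone if no other exact word lies within 1000 bp on the strand. Points are all copies (black) and copies that stand alone (red), bars are 95% Wilson intervals; the commonest form sits at 71.5% and 74.4% and the change at position 24 at 9.17% and 9.59%.

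Family 2 was set beside arrays of the unit AGAGGC, on which 732 Gm14412 peaks were counted. How many of the 710 family 2 peaks are among these was not counted. Gm14412 peaks were rare on arrays of other 6-base units. Perfect runs of at least 30 bp, joined within 50 bp, gave 1605 arrays of this unit in mm9 counting both strands, and 745 of them (46.4%, Wilson interval 44.0 to 48.9%) overlapped the window of a Gm14412 peak. Of 21491 arrays of all other 6-base units, 20 did (0.0931%). The unit was picked as the one with the most arrays carrying a peak, so its lead describes it and is not a test. Run lengths were not matched between units, and their part in these shares was not tested. The unit AGAGGG, with another last base, had 3426 arrays and 4 with a peak (0.117%), and ACAGGC had 124 with 3 (2.42%). Among the 39 units with at least 50 arrays the next highest share was that of AGGCGG, with 4 of 60 (6.67%). None of the 9 other ChIPs with this control had a peak on any of the 1605 arrays.

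Arrays with longer perfect runs carried a peak more often; the part of the larger area they cover was not tested. The share was 3.52% (8 of 227) for a longest perfect run of 30 to 39 bp, 18.0% for 40 to 49 bp, 19.5% for 50 to 69 bp and 37.4% for 70 to 99 bp. It was 52.7% (224 of 425) for 100 to under 150 bp and 77.8% (390 of 501) from 150 bp on. The tags per bound array did not rise with it, with medians of 122 and 114 in the first 2 classes and 63.0 and 70 in the last 2. The exact core stood in 0 of the 710 family 2 windows (Wilson upper limit 0.538%), and the core with 1 mismatch in 25.5% of them against 10.4% of windows 1000 bp away.

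**Figure D5:**
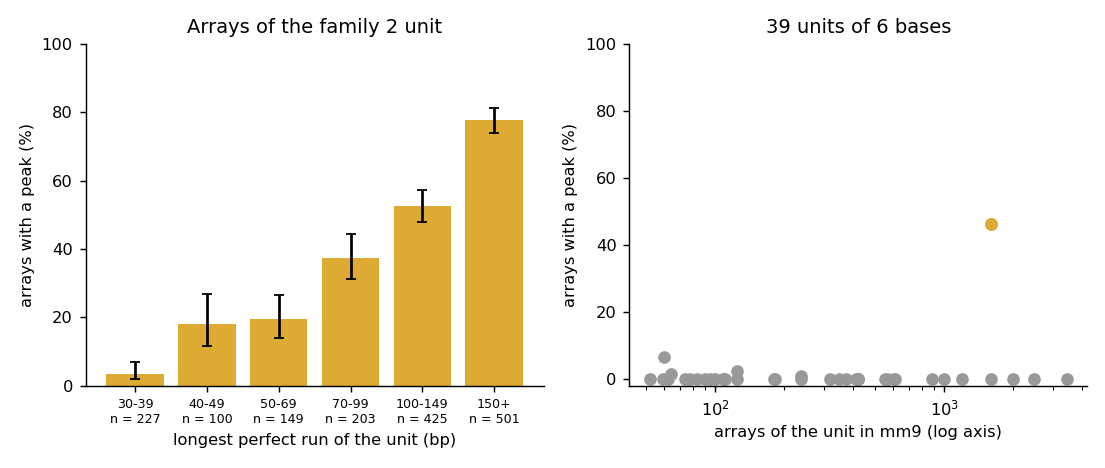
Left, share in percent of arrays of the family 2 unit in mm9 that carry a Gm14412 peak, by the longest perfect run in bp, with 95% Wilson intervals; it goes from 3.52% to 77.8%. Right, the same share for each of 39 units of 6 bases against its number of arrays on a log axis, with the family 2 unit in yellow at 46.4%.

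The peak with the most tags was a tandem array of the core itself. It lay at chr7:85976372-85976571 in an intron of Det1, a subunit of an E3 ubiquitin ligase complex, with 3736 tags, a fold of 138.7 and a called width of 4622 bp. Its tags were 1.05% of all Gm14412 tags in peaks. The surrounding 2973 bp (chr7:85975941-85978913) held 72 exact cores, all on the plus strand, with none on the minus strand within 6000 bp. Of the 71 gaps between neighbouring cores 42 were 40 bp, and the range was 38 to 48 bp. Over mm9 in bins of 1000 bp, 0.0868% of bins without a core had a Gm14412 summit, 0.991% of those with 1 core and 3.54% of those with 2 (89 of 2512). The share was 2.18% (19 of 871) with 3 or 4 cores and 3.74% (4 of 107) with 5 to 9, whose intervals overlap that for 2. Of the 7 bins with 10 or more cores, 2 had a summit (28.6%, Wilson interval 8.22 to 64.1%), against an interval of 2.89 to 4.34% for 2 cores. The Det1 peak lies in 1 of these 2, and its array covers more than 1 of the 7, so they are not separate loci. On the chromosomes not used to find the motif, 1.04% of bins with 1 core had a summit and 3.47% of those with 2. Only 1 bin there had 10 or more cores, and it had no summit.

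The other peaks with the most tags were 1175 and 1078 tags in family 1 copies at chr3:66439197-66439396 and chr9:92915561-92915760, 1113 tags at Lor, and 975 tags in a family 1 copy at chr18:45183758-45183957. The family 1 copies were all between genes, at least 195539 bp from a transcript start. The peak at Lor, the gene of loricrin, a glycine-rich protein of the skin barrier, lay in its coding exon (chr3:91884587-91884786) with 75% G and C and a fold of 140.2.

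Peaks near genes came almost wholly from the few-copy class. Within 1000 bp of an annotated transcript start lay 332 Gm14412 peaks (11.9%, Wilson interval 10.8 to 13.2%), against 4.15% of all 200 bp windows of mm9. They included 303 of the 936 few-copy peaks (32.4%), 6 of family 1 (0.573%), 20 of family 2 (2.82%) and 3 of the rest. The median distance to a start was 5104 bp for the few-copy peaks, 53936 bp for family 1 and 17179 bp for family 2. In the few-copy class 80 summits lay in coding exons (8.55%), 127 in UTRs, 346 in introns and 369 between genes. No summit of family 1 or family 2 lay in a coding exon or a UTR. Among the 10 ChIPs the share of all peaks within 1000 bp of a start was higher in EtOHi1 (19.4%, 13 of 67) and lower in the 8 others. The difference from the mean of the 9 was 5.61 percentage points (exact permutation test, two-sided p = 0.400). Among peaks with fewer than 10 copies, those in families included, the share was 31.4% for Gm14412 and 32.1% for Gm14410, which had 28 such peaks. For EtOHi1 it was 20.0%, and 8 of the 9 others lay below Gm14412.

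The peaks within 1000 bp of a start named 333 protein-coding genes, 1.5% of those annotated, and 106 of the genes had the exact core in their highest peak window. The highest fold enrichment, 145.5 with 530 tags, was found in an intron of Rims4, a synaptic protein gene, 202 bp from a start. Zfp292, a zinc finger gene, had a fold of 132.8 at 135 bp from a start, in a window without the core even with 1 mismatch. A peak of fold 132.5 lay 451 bp from a start of Vars2, the mitochondrial valyl-tRNA synthetase, and 717 bp from one of Gtf2h4, a subunit of the general factor TFIIH. Cep57, a centrosomal protein gene, had a fold of 131.8 with the exact core, and Herc1, a giant ubiquitin ligase gene, had 131.4 at 27 bp from its start. Foxj3, a forkhead factor gene, and its neighbour AA415398 shared a peak of fold 124.0, while Mid2, a ubiquitin ligase gene on the X chromosome, had 119.0 and Purg 116.4. All of these windows had a median of 1.00 copies of their words.

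The other 5 of the 10 peaks with the highest fold lay away from starts. Mtmr3, a phosphoinositide phosphatase gene, had a fold of 143.8 in an intron 3342 bp from a start, at a window with the exact core. Gnai2, a G protein subunit gene, had 126.7 in an intron 1932 bp from a start. The family 1 copy with the highest fold, 126.7 and 375 tags, lay between genes at chr3:61248621-61248820, and those at Det1 and Lor are described above.

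In the list of heterochromatin and KAP1 silencing genes, 1 of 22 annotated members had a peak within 1000 bp of a start, where 1.5% of all protein-coding genes did. It was Trim28, which encodes KAP1, the corepressor of the KRAB-ZFPs, with 158 tags and a fold of 45.8 at chr7:13608762-13608961, 639 bp from a start and between genes. Its window held the exact core shown above. None of 12 genes of retrotransposon control and none of 14 pluripotency genes had such a peak. The same was true of 64 annotated KRAB-ZFP genes named by the sample titles and of 49 protein-coding genes within 2000000 bp of the gene Gm14412. Against the share of 1.5% over all genes, lists of these sizes would hold few or no such genes, and the counts are not a result about the lists. The region around the gene held 2 peaks, both family 1 copies between genes, with folds of 64.5 (522 tags, 8485 bp from a start of Gm14407) and 46.2 (102 tags).

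Of the Gm14412 peaks 1 was shared with the ChIPs of the same control, whose lists held 67 to 5685 peaks. The share expected for windows placed at random was not computed, so the counts below are not read as a trait of Gm14412. Counting windows that overlapped by at least 25% of 200 bp, 1 of the 2787 Gm14412 peaks (0.0359%) met a peak of another ChIP of the 9. It lay at chr14:78274564-78274763, 60 bp from a start of Dnajc15, a mitochondrial co-chaperone gene, with a fold of 24 for Gm14412 and 29.8 for Gm14410, and the summits were 3 bp apart. Gm14406, which had the most peaks, shared 0 of its 5685. Gm14412 did share sites with ChIPs made in other ways, where cell line, tag, control or aligner also differed: 164 of its peaks (5.88%) met a peak of the 57 others, namely 77 few-copy peaks, 25 of family 1, 61 of family 2 and 1 of the rest. Gm13152 shared 60, which was 2.15% of the Gm14412 peaks and 1.16% of its own, and 56 of these were few-copy peaks. Gm21082 shared 52, or 1.87% and 2.35%, and 51 of these were family 2 peaks. Gm14419 shared 24, or 0.861% and 0.614%, of which 21 were family 1 copies.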

How the data were processed

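The study's authors aligned the reads to mm9, placed multiply matching reads at 1 of the equally good positions at random, called peaks per sample with MACS 1.4.2 without pooling, and set each to 200 bp around its summit. For each peak they deposited a raw count of tags, a score (10 times the negative log10 of the p-value), a fold enrichment (a ratio over the local background) and a false discovery rate in percent. Peaks were taken as deposited; the library depth is not given in the sources used here. Of 68 names in the table, 1 with 244 peaks matched no label and was not used, and 1 labelled KRAB-ZFP had no rows.

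Sequence was read from NCBIM37, which is mm9, and genes from gencode vM1. Exact words of 24 bases were counted over assembled chromosomes. Windows were aligned all against all with blastn 2.17.0 (e-value 1e-05) and joined by single linkage. The motif was fitted by expectation maximisation (1 matrix of 24 columns, 60 bp either side of the summit, both strands) with numpy 2.4.6, and its core is the 8 most informative columns. The word counts, the motif search and the array search were tested on simulated data. Single values of up to 10 samples were compared by exact permutation tests, leaving out ChIPs without peaks at a threshold. Shares have 95% Wilson intervals, and nothing else was tested. Peaks named were the 10 of highest fold and the 5 with the most tags, and genes named were the 10 protein-coding genes of highest fold near a start and the members of fixed lists. The members, lists and measures were chosen with earlier results of these data known, and the array, copy and site-form counts after the sequences were seen.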

Additional observations from a re-analysis of the deposited data

How the results depend on the processing

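The 4 results with a permutation test had 13 alternatives, with other thresholds, copy minimums, word lengths and distances. All kept the direction of the main value, and none could pass 0.05. The alternative for the median fold used the lists as deposited, whose unlike thresholds favour this direction. The difference in log10 peak number ranged from 0.979 to 2.06, and the share of multi-copy peaks was 68.2% from 2 copies on, 59.5% from 100 on and 58.8% with words of 36 bases. The share with the exact core over all Gm14412 peaks on the chromosomes not used to find it was 14.2%. It was 9.84% in 100 bp windows, 16.4% with the chromosome sets exchanged, 18.8% at a fold over 40 and 72.2% with 1 mismatch allowed, which by construction accepts more sequences. Families held 1805 peaks, 1749 at 90% identity and 1944 at 50% coverage, and the shared loci stayed at 1 peak under all 4 alternatives. No paired analysis was possible because each group had 1 sample. The labels give no batches, 1 sample per protein leaves the protein and the library impossible to tell apart, and a site without a peak is not shown to be unbound.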

Other observations

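Leaving out the Y chromosome, which had 4 family 1 peaks and no few-copy peak, the X had the highest density of family 1 peaks, 93 or 0.574 per Mb, and the lowest of few-copy peaks, 22 or 0.136 per Mb. Chromosome 11 had 69 few-copy peaks (0.581 per Mb) and 28 of family 1 (0.236 per Mb), and chromosome 17 had 55 (0.598 per Mb) and 33 (0.359 per Mb). Of the 189 family 1 peaks inside protein-coding genes, 115 had the repeat on the strand opposite to the gene (60.8%, Wilson interval 53.7 to 67.5%) and 74 on the same strand. The strand of all copies of the repeat inside genes and their number per chromosome were not counted. The shares and densities are therefore not read as a trait of Gm14412, and none of them was tested.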
